A study of Sus scrofa with 6 samples.

Results

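Endothelial genes were examined in primary cells that had been freed by enzymes from auricular cartilage, the cartilage of the external ear, of a pig. The list holds 34 genes known from endothelium, and 31 of them were found among the 19670 gene models of the deposited table, 24 by gene symbol and 7 by protein name (VWF, CLDN5, SOX17, SOX7, GJA4, CD34 and EMCN). No model was matched to CDH5, SOX18 or PLVAP, so these 3 were not analysed here. The DMSO group (3 libraries) was kept with the solvent and the GW0742 group (3 libraries) with GW0742, a compound that activates the lipid-sensing nuclear receptor PPARD, each for 24 h. All cells of both groups came from 1 animal of 4 months, bred as Duroc × (Landrace × Large White) and wild-type for PPARD. Whether the libraries of a group came from separate cultures is not stated in the labels. The p-values therefore cover only the spread from library to library, which may be technical.

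Endothelial cells line blood and lymph vessels. Mature cartilage itself has no vessels, but the perichondrium and skin that enclose ear cartilage do, and cells freed from whole tissue can include vessel cells. Endothelial identity is set by ETS and SOXF transcription factors, contacts are sealed by CDH5 (VE-cadherin), PECAM1 and CLDN5, and growth and rest are governed by the VEGF receptors, by the TIE receptors with their angiopoietin ligands, and by Notch. Of the list, 28 genes are treated here as restricted to endothelium relative to connective tissue (25 with a model), although several of these are also known from blood cells. The other 6 (FLT1, CD34, ANGPT2, ERG, FLI1 and ENG) are also known from chondrocytes, fibroblasts or other mesenchymal cells, and all 6 have a model.

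The libraries held between 13133980 and 16913745 estimated reads, and 3 reads corresponded to between 0.177 and 0.228 CPM (reads of a gene scaled to a common library size). Over all genes, 14146 models were deep enough to test, of which 26 passed an adjusted p of 0.05 with higher values under GW0742 and 11 with lower ones (edgeR quasi-likelihood test, Benjamini-Hochberg adjustment), which together are 0.262% of those tested. The cells carried cartilage and fibroblast transcripts: the proteoglycan FMOD and the collagen COL11A1 led the cartilage list, and COL1A2 and VIM led the fibroblast list. MATN1, a matrix protein of cartilage, was at 1 or 2 reads in each library, and CNMD, a cartilage inhibitor of vessel growth, was at 0 in the DMSO libraries and at 0, 1 and 2 reads in the GW0742 libraries (both named after their values were seen).

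Of the 25 endothelium-restricted genes with a model, 16 stood higher in every GW0742 library than in any DMSO library and 9 overlapped. ENG and ERG, the most abundant of those shared with connective tissue, differed by log2 values of 0.08 ± 0.07 and -0.06 ± 0.08 (SE). The other shared genes differed by 2.01 ± 0.47 (CD34), 0.97 ± 0.21 (ANGPT2), 0.63 ± 0.29 (FLT1) and 0.3 ± 0.31 (FLI1). CLDN5, the most abundant restricted gene, differed by 0.43 ± 0.15, so the 2 classes did not split cleanly. In all 3 GW0742 libraries 18 of the 31 members lay above all 3 DMSO libraries, and 0 lay below. Over all 19499 models with reads, 10.6% lay above in this way and 10.1% below. The 18 were 16 of the 25 restricted members and 2 of the 6 shared ones, CD34 and ANGPT2. The median log2 fold change, fitted with no filter on low counts, was 1.42 over the restricted members, 0.47 over the shared members and 0.01 over all models. It was above 0 in 29 of 31 members, the exceptions being SHE at -0.10 and ERG at -0.05, and in 10165 of the 19499 models with reads. In these bulk samples, more endothelial cells, more of these RNAs per endothelial cell and more from other cells cannot be told apart.

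**Figure D1:**
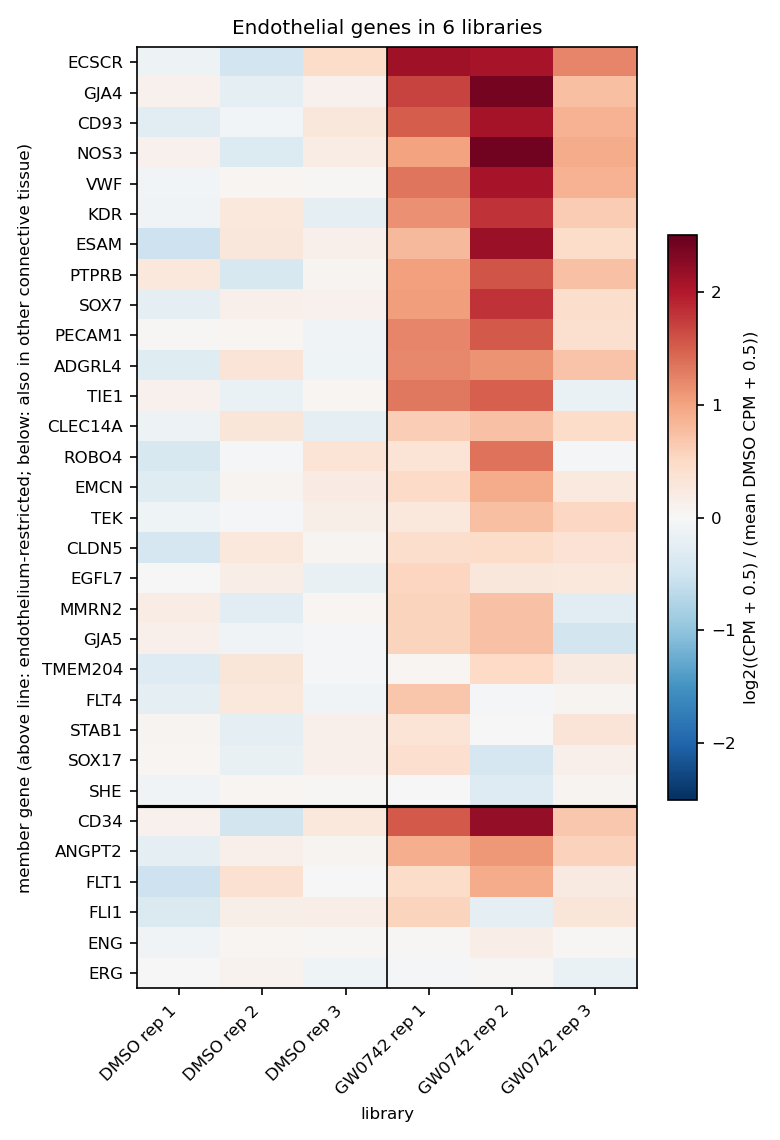
Log2 of each member's CPM (plus 0.5) over its DMSO mean in the 6 libraries, with restricted members above the horizontal line and shared members below it. The 3 GW0742 columns are mostly red, deepest in replicate 2 and palest in replicate 3, and the rows of ENG and ERG stay near white.

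No single member passed the threshold in edgeR with all 6 libraries. Of the 27 members deep enough to test, 0 had an adjusted p under 0.05 in either direction. An unadjusted p under 0.05 was reached by 16 members with higher values and by 0 with lower ones, against 7.93% of all tested models higher. DESeq2, run on the same counts, called 10 members higher and 0 lower (PECAM1, VWF, KDR, PTPRB, GJA4, CD93, ECSCR, CD34, ANGPT2 and NOS3), against 1.46% of all tested models called higher. Without GW0742 replicate 3, edgeR called 6 members higher (PECAM1, VWF, TIE1, GJA4, CD93 and CD34), against 0.375% of the models tested in that fit. Of the tested members, 6 (VWF, ADGRL4, GJA4, ECSCR, CD34 and NOS3) reached the level that the filter asks for, 0.651 CPM, in all 3 GW0742 libraries but in fewer than 3 DMSO libraries, so the counts over tested members favour higher values. The counts over all 31 members above do not depend on that filter.

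Among the 12 genes of cell contacts and adhesion, 9 lay above all DMSO libraries in every GW0742 library, against 10.6% of all models. PECAM1, a junction protein of endothelium, platelets and leukocytes, stood at 11.9, 12.2 and 11.1 CPM in DMSO replicates 1, 2 and 3 and at 28.3, 35.0 and 15.6 CPM in the GW0742 replicates. All GW0742 libraries lay above the DMSO range, which was narrow, and replicate 3 came closest to it. The mean was 11.7 ± 0.563 CPM in DMSO and 26.3 ± 9.83 CPM with GW0742 (SD, n = 3), a log2 fold change of 1.16 ± 0.26 (SE), which missed the threshold (edgeR adjusted p = 0.0977). It passed under 2 of 14 settings, DESeq2 and edgeR without GW0742 replicate 3, and the adjusted p ranged from 0.000214 to 0.408 over them. In deposited RPKM, which are scaled by length, the PECAM1 groups overlapped, with 6.35 in GW0742 replicate 3 against 4.66 to 8.25 in DMSO. The PECAM1 model joins 11 transcripts, and the part of that in the difference between both scales was not tested.

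CD93, a lectin-like receptor of endothelium and myeloid cells that takes part in adhesion, stood at 2.43, 2.93 and 3.90 CPM in the DMSO replicates and at 9.80, 14.7 and 6.08 CPM in the GW0742 replicates. The groups did not overlap, and replicate 2 was again highest and replicate 3 lowest of the GW0742 group. Its log2 fold change was 1.72 ± 0.33 (SE, edgeR adjusted p = 0.0764), and it passed under 2 of 14 settings, with adjusted p from 5.9e-05 to 0.298. GJA4, a connexin of arterial gap junctions, had 4, 1 and 4 reads in the DMSO libraries and 22, 50 and 10 reads in the GW0742 libraries. It thus rested on single reads in DMSO, and each GW0742 library held more. The fitted log2 fold change was 3.21 ± 0.66 (SE, edgeR adjusted p = 0.0839), the highest of the tested members, or 2.54 without GW0742 replicate 2. Its relative GJA5, another arterial connexin, overlapped between groups, at 1.13, 0.901 and 0.960 CPM in DMSO and 1.68, 2.00 and 0.588 CPM with GW0742.

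ESAM, a junction molecule of endothelium and platelets, stood at 0.831, 1.80 and 1.56 CPM in DMSO and at 2.83, 7.92 and 2.09 CPM with GW0742. Replicate 2 was far above the other GW0742 libraries. The log2 fold change was 1.64 ± 0.53 (SE, edgeR adjusted p = 0.181), or 0.82 without that library. A further 2 models carry ESAM protein names but no symbol. Both overlapped between groups, at 0.436 to 1.30 CPM and 0.125 to 0.457 CPM in the GW0742 libraries. CD34, a sialomucin of endothelium, of blood progenitors and of some fibroblasts, stood at 1.01, 0.526 and 1.20 CPM in DMSO and at 3.60, 5.92 and 1.76 CPM with GW0742. Although listed as shared, it stood apart between the groups, with a log2 fold change of 2.01 ± 0.47 (SE, edgeR adjusted p = 0.107).

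CLDN5, the tight junction claudin of endothelium, was the most abundant member per length. Which cells carried CLDN5 here was not tested. It stood at 36.0, 58.4 and 50.6 CPM in DMSO and at 65.9, 66.3 and 62.4 CPM with GW0742, and its log2 fold change was 0.43 ± 0.15 (SE, edgeR adjusted p = 0.209). The groups did not overlap, but the 3 GW0742 libraries were nearly level with each other, and the spread lay in the DMSO libraries. CLEC14A, an endothelial lectin, and ADGRL4, an adhesion receptor of endothelium, did not overlap either, with log2 fold changes of 0.67 ± 0.20 and 1.59 ± 0.35 (SE). EMCN, a sialomucin of veins and capillaries, had 1, 3 and 5 reads in DMSO and 6, 13 and 5 reads with GW0742, so its order between groups rests on depth scaling where 5 reads met 5. TMEM204, a claudin-like protein of cell contacts, and SHE, an SH2 adapter, overlapped, with log2 fold changes of 0.32 ± 0.25 and -0.11 ± 0.26 (SE).

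**Figure D2:**
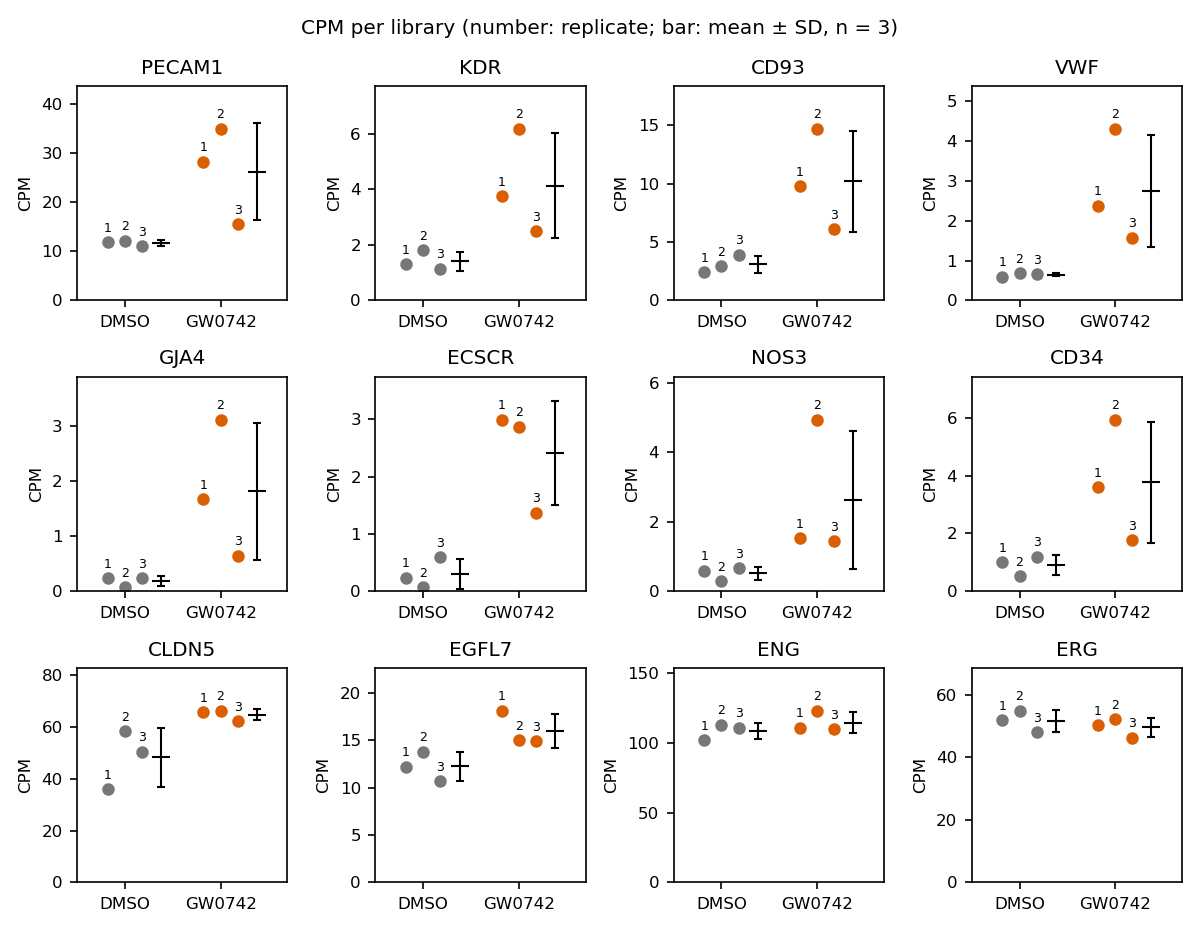
CPM per library of 12 members, with numbers for the replicate and bars for the mean ± SD (n = 3) on axes that start at 0. PECAM1, KDR, CD93, VWF, GJA4, ECSCR, NOS3 and CD34 show replicate 3 as the lowest GW0742 library, still above the DMSO libraries, while ENG and ERG overlap.

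Of the 10 receptors, 4 (KDR, TEK, PTPRB and ECSCR) lay above all DMSO libraries in every GW0742 library, against 10.6% of all models. KDR, the main VEGF receptor of endothelium, stood at 1.31, 1.80 and 1.14 CPM in DMSO and at 3.75, 6.17 and 2.48 CPM with GW0742. These are 19 to 24 reads against 38 to 99 reads, and the groups did not overlap. The log2 fold change was 1.56 ± 0.36 (SE, edgeR adjusted p = 0.107), and KDR passed under DESeq2 alone among 14 settings, with adjusted p from 0.0156 to 0.346. FLT1, the VEGF receptor that also acts as a decoy, overlapped at 2.97, 6.01 and 4.44 CPM in DMSO and 6.28, 8.92 and 5.29 CPM with GW0742. FLT4, the VEGF receptor of lymphatic endothelium, overlapped too, at 0.831 to 1.35 CPM in DMSO and 0.998 to 1.99 CPM with GW0742. Of the VEGF receptors, then, only KDR separated the groups, and whether its difference exceeded that of FLT1 or FLT4 was not tested.

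TIE1, an orphan receptor that pairs with TEK, stood at 0.653, 0.451 and 0.600 CPM in DMSO and at 2.14, 2.49 and 0.457 CPM with GW0742. GW0742 replicate 3 lay inside the DMSO range, so the groups overlapped (log2 fold change 1.55 ± 0.56, SE, edgeR adjusted p = 0.219). TEK, the angiopoietin receptor, had 2, 2 and 4 reads in DMSO and 4, 10 and 7 reads with GW0742, too few to be tested. Its order between groups rests on depth scaling where 4 reads met 4. PTPRB, the phosphatase that acts on TEK and on VE-cadherin, stood at 1.37, 0.676 and 1.14 CPM in DMSO and at 2.68, 4.18 and 2.09 CPM with GW0742. Its groups did not overlap, with a log2 fold change of 1.47 ± 0.35 (SE, edgeR adjusted p = 0.111).

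ECSCR, a surface protein of endothelium that acts in migration, had 4, 1 and 10 reads in DMSO and 39, 46 and 21 reads with GW0742. All GW0742 libraries held more reads than any DMSO library. The log2 fold change of 2.89 ± 0.54 (SE) had the lowest edgeR adjusted p of the members, 0.0730, and it was 3.81 without DMSO replicate 3. ROBO4, a receptor that steadies vessel walls, overlapped, at 5, 7 and 14 reads in DMSO and 11, 35 and 8 reads with GW0742, and its log2 fold change of 1.10 was 0.28 without GW0742 replicate 2. STAB1, a scavenger receptor of sinusoidal endothelium and macrophages, overlapped at 11.9, 9.61 and 12.3 CPM in DMSO and 14.5, 11.2 and 14.2 CPM with GW0742. ENG (endoglin), a TGF-beta coreceptor of endothelium and of mesenchymal cells, stood at 102, 113 and 111 CPM in DMSO and at 111, 123 and 110 CPM with GW0742. It was the best measured member, with 1455 to 1966 reads, and its log2 fold change was 0.08 ± 0.07 (SE, edgeR adjusted p = 0.602).

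Of the 4 secreted proteins, 3 lay above all DMSO libraries in every GW0742 library, against 10.6% of all models. VWF, the clotting factor stored in endothelial granules, stood at 0.594, 0.676 and 0.660 CPM in DMSO and at 2.37, 4.30 and 1.57 CPM with GW0742. The DMSO libraries held 9 to 11 reads each and the GW0742 libraries 24 to 69, and the log2 fold change was 2.09 ± 0.41 (SE, edgeR adjusted p = 0.0764). The model of VWF was found by its protein name and carries the symbol ANO2 in the name table, so reads of both genes may be joined in it. ANGPT2, the angiopoietin released by activated endothelium, stood at 2.73, 3.60 and 3.42 CPM in DMSO and at 6.51, 7.48 and 5.10 CPM with GW0742. Its groups did not overlap, with a log2 fold change of 0.97 ± 0.21 (SE, edgeR adjusted p = 0.0920). EGFL7, a matrix-bound factor made by endothelium, stood at 12.2, 13.8 and 10.7 CPM in DMSO and at 18.1, 15 and 14.9 CPM with GW0742, a small gap that left the groups apart (log2 fold change 0.39 ± 0.13, SE, edgeR adjusted p = 0.204). MMRN2, an endothelial matrix protein that binds CD93 and CLEC14A, had 3, 0 and 2 reads in DMSO and 5, 8 and 0 reads with GW0742. A second model with a multimerin-2 protein name carries the symbol SNCG and overlapped as well, at 0.480 to 0.976 CPM in DMSO and 0.536 to 1.96 CPM with GW0742.

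Of the 4 transcription factors 1, SOX7, lay above all DMSO libraries in every GW0742 library. Over all models this share was 10.6%, and 4 genes are too few to tell 1 of 4 from it. ERG, an ETS factor of endothelium that chondrocytes also express, stood at 51.8, 54.8 and 48.0 CPM in DMSO and at 50.3, 52.1 and 46.2 CPM with GW0742. The groups overlapped almost fully, with a log2 fold change of -0.06 ± 0.08 (SE, edgeR adjusted p = 0.767). FLI1, a second ETS factor of endothelium and blood, overlapped at 1.48 to 2.40 CPM in DMSO and 1.68 to 3.29 CPM with GW0742, and its second model did so too. The SOXF factors SOX7 and SOX17 differed in pattern. SOX7 had 3, 5 and 6 reads in DMSO and 15, 37 and 9 reads with GW0742, while SOX17 had 12, 7 and 13 reads in DMSO and 14, 6 and 12 reads with GW0742. Only the SOX7 groups stood apart, and whether both genes differ in response was not tested. NOS3, the endothelial nitric oxide synthase and the 1 enzyme with a model, had 10, 4 and 11 reads in DMSO and 20, 79 and 22 reads with GW0742. Its groups did not overlap, and the log2 fold change was 2.31 ± 0.57 (SE, edgeR adjusted p = 0.114), or 1.48 without GW0742 replicate 2.

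Per length, the members spanned a wide range of levels in the DMSO libraries. In deposited RPKM (the authors' read numbers scaled to model length and to depth), CLDN5 led at 68.7 ± 15.3, followed by ENG at 33.0 ± 1.29, ERG at 12.6 ± 0.777, PECAM1 at 6.55 ± 1.80 and EGFL7 at 4.43 ± 0.536 (SD, n = 3). Neighbours in this order did not overlap down to PECAM1, which overlapped with EGFL7, and EGFL7 lay apart from the gene after it. From TMEM204, at 1.61 ± 0.401 RPKM, down to SOX7, at 0.0892 ± 0.0266 RPKM, each gene overlapped with the next, so neighbours in the order are not resolved, although genes further apart, such as TMEM204 and VWF, did not overlap. TEK at 0.0450 ± 0.0118 RPKM and MMRN2 at 0.0314 ± 0.0278 RPKM came last. The defining markers were thus far apart in DMSO, with KDR at 0.246 ± 0.0710 RPKM and VWF at 0.134 ± 0.00626 RPKM beside PECAM1 and CLDN5. RPKM depends on the model, and those of CLDN5 and EMCN span only 657 and 381 bases.

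**Figure D3:**
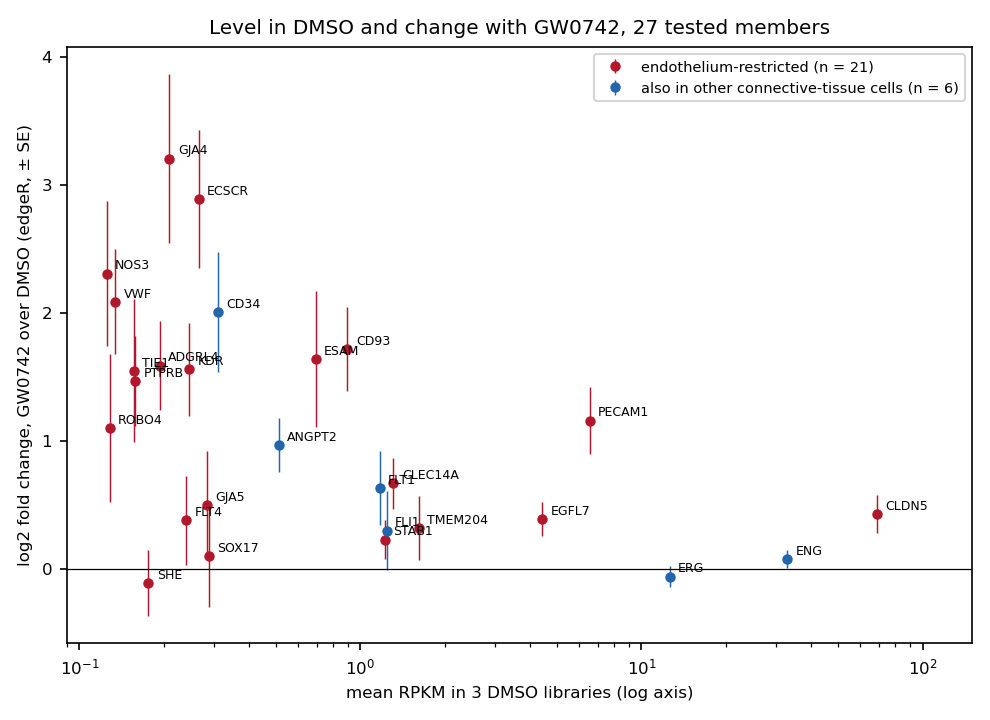
Mean deposited RPKM in the 3 DMSO libraries (log axis) against the log2 fold change of GW0742 over DMSO with its SE, for the 27 tested members (red restricted, blue shared). GJA4 and ECSCR, at 0.209 and 0.266 RPKM, show the highest fold changes, and ENG, ERG and CLDN5, at 12.6 RPKM or more, lie between -0.06 and 0.43.

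The order changed with GW0742 for genes that were scarce in DMSO. ECSCR went from rank 18 to rank 8 by mean RPKM and GJA4 from rank 21 to rank 11, while CLDN5 and ENG held ranks 1 and 2 and PECAM1 passed ERG to rank 3. ENG was 4.69, 4.09 and 7.25 times PECAM1 in RPKM in the DMSO libraries and 2.62, 1.89 and 5.32 times in the GW0742 libraries, so that replicate 3 fell inside the DMSO range. CD93 was 3.27, 2.56 and 5.96 times KDR in DMSO and 4.68, 4.19 and 2.01 times with GW0742, which overlapped. GJA4 over CD93 overlapped narrowly, at 0.392, 0.103 and 0.226 in DMSO and 0.624, 0.786 and 0.391 with GW0742. ECSCR over CD93 did not overlap, at 0.292, 0.0969 and 0.443 in DMSO and 0.918, 0.593 and 0.672 with GW0742.

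Summed over the 25 restricted members, the level was 91.3, 118 and 108 CPM in DMSO and 177, 202 and 142 CPM with GW0742, a ratio of means of 1.64 ± 0.287 (SD over GW0742 libraries). Each GW0742 library lay above each DMSO library. Summed over the 6 shared members it was 162, 180 and 171 CPM in DMSO and 181, 199 and 172 CPM with GW0742, a ratio of 1.08 ± 0.0805, and the groups overlapped. CLDN5 and ENG were the most abundant genes of these sums. Without CLDN5 the ratio of the restricted members was 1.90, and without ENG that of the shared members was 1.11. Weighting all members alike, the median log2 level over the DMSO mean was 0.69, 1.13 and 0.40 in GW0742 replicates 1, 2 and 3 for restricted members and 0.50, 0.55 and 0.26 for shared members. Restricted members therefore stood higher than shared ones in each GW0742 library by this median, but the difference between the classes was not tested, and CD34 and ANGPT2 belong with the higher genes.

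The 3 GW0742 libraries differed from each other in the same direction for most members, a pattern that was singled out after values had been seen. In 21 of 31 members replicate 2 was highest and replicate 3 lowest of the GW0742 libraries, against 15.8% of all models with reads. This held in 16 of 25 restricted and 5 of 6 shared members. GW0742 replicate 2 over replicate 3 had a median ratio of 2.16 over the 24 restricted members with reads in replicate 3, 1.30 over the shared members and 0.985 over all models. In CPM the ratio was 2.24 for PECAM1, 2.42 for CD93, 2.49 for KDR and 5.45 for TIE1, but 1.13 for ERG and 1.11 for ENG. In deposited RPKM, KDR stood at 0.613, 1.07 and 0.886 in GW0742 replicates 1, 2 and 3, so replicate 3 was not its lowest on that scale. The number of members called moved with replicate 3, as given above.

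Members that differed between the groups also tended to differ between the GW0742 libraries. The log2 ratio of GW0742 replicate 1 over the DMSO mean was set against that of GW0742 replicate 2 over replicate 3, a pair of contrasts that use no library in common. Across the 31 members Pearson's r was 0.62 and Spearman's rho 0.65. The first ratio was above 0 in 30 members, the second in 26 and both in 25. The count for both is nearly fixed by the counts of each ratio and cannot show a link. Across all 14146 tested models r was 0.12 and rho 0.07. There the first ratio was above 0 in 6939, the second in 7172 and both in 3685. Genes are not independent replicates and share each library's scaling. The pattern of replicates 2 and 3 was singled out after values had been seen, so these values are a description. CD34 had the values 1.54 and 1.5, GJA4 1.68 and 1.65, and TIE1 1.31 and 1.64. ENG had 0.03 and 0.15, and ERG -0.03 and 0.17.

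**Figure D4:**
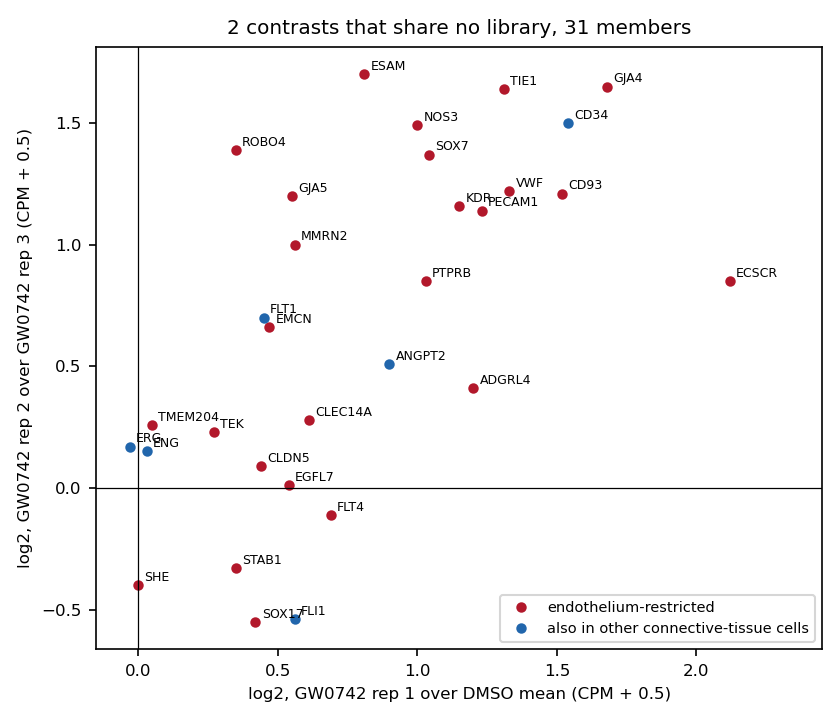
Log2 of GW0742 replicate 1 over the DMSO mean (horizontal) against log2 of GW0742 replicate 2 over replicate 3 (vertical), both from CPM plus 0.5, for 31 members. Of these, 30 lie above 0 on the horizontal axis and 26 on the vertical one, which nearly fixes the 25 above 0 on both. ENG and ERG lie near the origin.

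Genes of vascular signalling outside the list went both ways. Of 22 such genes 19 had a model, of which 6 lay above and 3 below in every library. Over all models with reads, 10.6% lay above and 10.1% below. The median log2 fold change over the 19 was 0.09. Over all 14146 tested models, edgeR called 26 higher and 11 lower, and DESeq2 called 207 higher and 234 lower. An unadjusted edgeR p under 0.05 was reached there by 1122 with higher and 1260 with lower values. Among the 17 tested of this list, edgeR called 1 higher and 0 lower, and DESeq2 called 4 higher and 1 lower. An unadjusted edgeR p under 0.05 was reached by 6 with higher and 2 with lower values. The called gene was DLL4, the Notch ligand of arterial and sprouting endothelium, at 0.772, 0.901 and 1.20 CPM in DMSO and 5.44, 7.23 and 3.46 CPM with GW0742 (log2 fold change 2.48 ± 0.33, SE, edgeR adjusted p = 0.0333). It passed in 5 of 14 settings, and of the fits that leave out 1 library only the one without GW0742 replicate 3 kept it (adjusted p = 0.0174, the others up to 0.177). CXCR4, a chemokine receptor of sprouting endothelium and of leukocytes, had 3, 1 and 7 reads in DMSO and 30, 60 and 14 reads with GW0742 (log2 fold change 3.27 ± 0.65, SE, edgeR adjusted p = 0.0776), or a log2 fold change of 4.06 without DMSO replicate 3. All its DMSO libraries lay under the filter level of 0.651 CPM, so it was tested only through its GW0742 libraries. Counts over the tested genes of this list thus favour higher values. PGF, a ligand of FLT1, stood at 1.54, 1.28 and 2.16 CPM in DMSO and 5.82, 5.17 and 2.81 CPM with GW0742 (edgeR adjusted p = 0.0998). The groups did not overlap for any of these 3 genes. VEGFA, the main ligand of KDR, overlapped at 170 to 194 CPM in DMSO and 155 to 215 CPM with GW0742, and is named after its values were seen.

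Another 25 genes known from endothelium gave 18 models, of which 11 were tested. In edgeR 0 were called, 6 had an unadjusted p under 0.05 with higher values and 2 with lower ones, and DESeq2 called 1 higher (AQP1) and 1 lower (PALMD). Over all 14146 tested models, 1122 higher and 1260 lower had such a p, and DESeq2 called 207 higher and 234 lower. In every library 6 of the 18 lay above and 2 below, against 10.6% and 10.1% of all models with reads. The median log2 fold change of the 18 was 0.51. AQP1, a water channel of capillaries that chondrocytes also make, stood at 1.48, 1.95 and 2.58 CPM in DMSO and 5.74, 4.55 and 3.72 CPM with GW0742 (log2 fold change 1.21 ± 0.27, SE, edgeR adjusted p = 0.0974). LMO2, a cofactor of blood and vessel transcription factors, overlapped with a log2 fold change of 1.22 ± 0.46 (1.87 without DMSO replicate 3), and ARHGEF15, an exchange factor of endothelium, did not overlap, with 1.00 ± 0.33 (SE). LMO2 reached the filter level of 0.651 CPM in all GW0742 libraries but not in all DMSO libraries, so counts over tested genes favour higher values here too. CALCRL, a receptor of vessels that is named after its values were seen, had 1, 0 and 1 reads in DMSO and 9, 14 and 3 reads with GW0742.

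Markers of other cell types that carry some of these transcripts were measured beside the members. Leukocyte and platelet markers had 11 models of 15 genes, of which 2 lay above and 0 below in every library. Over all models with reads, 10.6% lay above and 10.1% below. The median log2 fold change of the list was 0.39, with 9 of 11 models above 0, against 0.01 over all models. None of the 3 platelet genes of that list (ITGA2B, GP9 and PF4) was matched to a model, so platelets were not assessed here. The sum of the list was 27.9 to 31.8 CPM in DMSO and 31.5 to 38.1 CPM with GW0742. PTPRC, which defines leukocytes, was at 2 to 4 reads in every library, and CD53 was at 0 except for 2 reads in GW0742 replicate 2. The most abundant of this list were CD14, at 19.5 to 23.9 CPM in DMSO and 22.7 to 26.1 CPM with GW0742, and CD3E, at 3.48 to 3.91 and 4.06 to 4.57 CPM. The median GW0742 replicate 2 over replicate 3 ratio of this list was 0.757 over 10 models, and 0 of its 11 models had replicate 2 highest and replicate 3 lowest, against 15.8% of all models. Whether this differs from the members was not tested.

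Pericyte and smooth muscle markers had 11 models of 12 genes, with a median log2 fold change of 0.05. Of the 11, 2 lay above and 3 below in every library, too few to set apart from the 10.6% and 10.1% of all models. The 2 above, named after their values were seen, were genes of a potassium channel of mural cells, KCNJ8, with 1, 0 and 2 reads in DMSO and 8, 6 and 10 reads with GW0742, and ABCC9, at 0.475, 0.751 and 0.660 CPM and 1.53, 1.56 and 1.05 CPM (edgeR adjusted p = 0.129). ABCC9 reached the filter level of 0.651 CPM in all GW0742 libraries but not in all DMSO libraries. The sum of the list was 9190 to 9560 CPM in DMSO and 7220 to 8920 CPM with GW0742, led by TAGLN and ACTA2, which smooth muscle and activated fibroblasts make. Lymphatic markers had 4 models of 5 genes, and 2 of these lay above in every library. Their median log2 fold change was 0.79. PDPN, which mesenchymal cells also make, stood at 0.534 to 0.601 CPM in DMSO and 1.15 to 1.5 CPM with GW0742, LYVE1 overlapped at 1.02 to 1.25 and 0.374 to 1.37 CPM, and PROX1, which defines lymphatic endothelium, was at 0 to 5 reads. Fibroblast markers had a median log2 fold change of 0.09 over 9 models, of which 3 lay above and 2 below in every library. DESeq2 called 1 of them higher and 1 lower. Cartilage markers had a median of -0.09 over 16 models, of which 0 lay above and 4 below, and DESeq2 called 0 higher and 2 lower. Over all 14146 tested models DESeq2 called 207 higher and 234 lower. Among cartilage markers ACAN, which gives cartilage its load-bearing aggregates, fell by 0.50 on the log2 scale (edgeR adjusted p = 0.0185, up to 0.105 over 14 settings). Keratinocyte markers, led by KRT10 and KRT5, and adipocyte markers had 4 and 2 models, of which 0 lay above in every library. These are too few to set against the 10.6% of all models. The part of any of these cell types in the members' values was not tested.

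**Figure D5:**
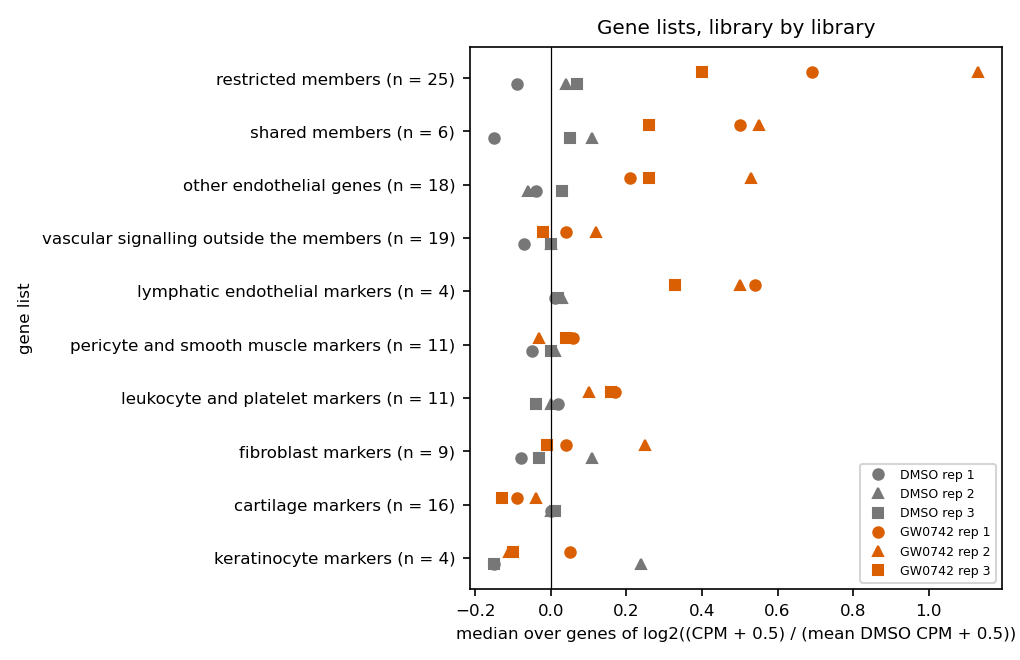
Median over each gene list of the log2 CPM (plus 0.5) over the DMSO mean, in each of the 6 libraries (grey DMSO, orange GW0742, one shape per replicate). Restricted members reach 0.69, 1.13 and 0.40 in GW0742 replicates 1, 2 and 3, while cartilage markers lie between -0.13 and 0.01 in all libraries.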

How the data were processed

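Per the labels' protocols, mRNA was drawn from total RNA with oligo(dT) beads, broken up and reverse transcribed from random hexamers, and sequencing was on the Ion Proton. The protocol names no strand-marking step, so overlapping genes on opposite strands cannot be told apart. Per the file headers, the deposited tables hold, for each gene model, estimated counts and RPKM values computed by the authors. The build was Sscrofa 10.2, per the submitters' processing notes. The aligner is not given in the sources used here, nor is the counter. No coordinates or sequences are printed.

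Models were named by identifier from a gene name table (11147 of 19670), or by the deposited protein name. Estimated counts were rounded to whole numbers, kept where filterByExpr allowed (minimum count 10) and TMM-scaled. The test was edgeR's quasi-likelihood F-test (version 4.0.16, R 4.3.3), two-sided and without a block, with Benjamini-Hochberg adjustment over all 14146 tested models and a threshold of 0.05. CPM use TMM-scaled library sizes. The floor of 3 reads covers counting error only, while the SE and SD values include the spread between libraries. RPKM served to compare levels between genes, and log2 levels per library use CPM + 0.5.

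The members, gene lists and tests were chosen with earlier results of these data known. Beside all members, the rule names the called genes and the 3 tested genes with the largest log2 fold change in the lists of vascular signalling and other endothelial genes, and the called genes and the 2 most abundant by RPKM in each list of another cell type. Other genes are said to be named after their values were seen, and PTPRC, CD53, PROX1, PDPN and PALMD are too. Alternatives were DESeq2 1.42.0, median-of-ratios size factors, no filter, each library left out, the replicate number as a block, limma 3.58.1 on log2(RPKM + 1) and log2(RPKM + 0.1), and summed models of a member. Leaving out libraries, or using RPKM, for the count of members above in every library was added after seeing the data. The fits were tested on simulated counts. No pair of libraries of a group agreed within sampling noise, and the labels name no batch.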

Additional observations from a re-analysis of the deposited data

How the results depend on the processing

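The call of single members depended on the tool and on 1 library. The 0 members called higher became 10 in DESeq2 and 0 to 6 when 1 library was left out, the 6 without GW0742 replicate 3, and stayed at 0 in the other alternatives. Over all models, the 26 called higher became 207 in DESeq2, 13 without the filter, 7 in limma on log2(RPKM + 1) and 6 to 54 when 1 library was left out. The 11 called lower became 234 in DESeq2, 3 without the filter, 2 and 6 in limma on log2(RPKM + 1) and log2(RPKM + 0.1), and 0 to 47 when 1 library was left out. The cause was not tested. With the replicate number as a block, 10 models were higher, 0 lower and 0 members called. Same-numbered libraries correlated at -0.103 to 0.005 in their deviations, and 1 of 3 DMSO libraries correlated best with its own number. These values show no pairing by number, but they cannot exclude that same-numbered libraries were handled together.

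Of 350 log2 fold changes of the 27 tested members over 13 alternatives, 331 kept their direction and side of the threshold, 16 passed it and 3 reversed. When 1 library was left out, SOX17 ranged from -0.23 to 0.44 and SHE from -0.23 to 0.06, so neither has a direction. As the median over members in place of the sum, the ratio was 2.68 for restricted and 1.38 for shared members, and the cause was not tested. The count of 18 members above in every library was 17 in RPKM (12.3% of all models) and 18 to 23 when 1 library was left out, where the share of all models was also higher, at 13.6% to 18.4%. TEK, SOX7, EMCN and MMRN2, with at most 6 reads in any DMSO library, are limited by depth.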
